A study of Mus musculus with 21 samples.

Results

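The genes that load cohesin onto DNA, take it off, acetylate it and stop it at boundaries were followed in mouse embryonic stem cells (mESCs) that had lost a PDS5 protein. They are *Nipbl*, *Mau2*, *Wapl*, *Esco1*, *Esco2*, *Cdca5*, *Hdac8* and *Ctcf*, 8 of the 23412 gene symbols in the count files. They were chosen by name for the role of their proteins, with earlier results of these data known. *Wapl* is listed under its older symbol, *Wapal*. All 8 were among the 14963 genes with enough reads to be tested. Poly-A RNA was sequenced from v6.5 mESCs, a male mouse line, in 7 conditions with 3 libraries each, 48 h after transfection with 50 nM siRNA. Wild-type (WT) cells received siGLO, a control siRNA, or siPds5b. Cells knocked out for *Pds5b* (Pds5b-KO) received siGLO. Cells knocked out for *Pds5a* (Pds5a-KO) received siGLO, siPds5b, siStag1 or siStag2, and Pds5a-KO siPds5b is called dual depletion here. The cells of all 21 libraries, controls included, were transfected. Both knockouts were made with CRISPR/Cas9, and the libraries of each came from 1 clone, so that an effect of the lost gene and a feature of the clone cannot be told apart. A supplementary legend of the study calls WT and knockout libraries biological replicates, but neither it nor the labels say how the 3 cultures of a condition were kept apart, and p-values measure the spread between these libraries. In bulk RNA, a lower level in every cell and fewer cells with a high level cannot be told apart.

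Cohesin is a ring of protein that holds DNA loops and sister chromatids. NIPBL and MAU2 form the loader complex that places the ring on DNA and keeps it moving, and WAPL, with a PDS5 protein, opens the ring and releases it. ESCO1 and ESCO2 acetylate the ring subunit SMC3, ESCO2 mainly during DNA replication, which protects cohesin from release. Sororin, the product of *Cdca5*, displaces WAPL from PDS5 once SMC3 is acetylated, and HDAC8 takes the acetyl group off again. CTCF binds DNA at loop anchors and halts the moving ring. PDS5A and PDS5B sit at the meeting point of these proteins, as the platform that WAPL, sororin and the ESCO enzymes use. The comparisons ask whether RNA of these partners moved when PDS5A, PDS5B, both, or a STAG subunit was lost.

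Libraries held 17311090 to 23989198 counts in all. The RNA of the siRNA targets was low where it was targeted: *Pds5b* had 776 ± 79.7 normalized counts (SD, n = 3) in WT siPds5b and 903 ± 169 in dual depletion against 2219 ± 177 in WT siGLO, *Stag1* had 575 ± 59.7 after siStag1, and *Stag2* had 875 ± 69.8 after siStag2. *Pds5b* was at 276 ± 37.2 in the Pds5b-KO libraries. *Pds5a* RNA was still at 4271 ± 500 in Pds5a-KO siGLO against 5059 ± 295 in WT siGLO. Since the edits of this clone lie in and beside a single exon and counts are given per gene and not per exon, the count does not check that label. The summed level of 8 mESC markers was between 4018 and 7433 CPM (the count scaled to the library total) in the 21 libraries, and was lower in every knockout library, at 5902 CPM or less, than in every WT library, at 6726 CPM or more. The sum of 3 endoderm markers was between 14.4 and 53.5 CPM, that of 3 neuroectoderm markers between 52.3 and 139.9, that of 3 trophoblast markers between 10.2 and 31.8, that of 2 mesendoderm markers between 2.40 and 29.3 and that of 4 fibroblast markers between 13.4 and 103. The neuroectoderm sum was 54.9 to 74.6 CPM in Pds5a-KO siGLO and 52.3 to 62.4 in dual depletion, against 97.9 to 135.6 in WT siGLO. In Pds5b-KO it lay within the WT siGLO range. The fibroblast sum was 13.4 to 19.0 CPM in Pds5b-KO against 52.3 to 72.0 in WT siGLO, which Pds5a-KO siGLO overlapped. The part of these marker differences in the results below was not tested. None of the marker genes was at 0 in every library, but the trophoblast gene *Elf5* had at most 6 counts and the fibroblast gene *Postn* was at 0 in some libraries.

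Levels are given as normalized counts, which are read counts scaled by TMM, a scaling that sets aside genes of extreme change, to the mean effective library size of 19816922. Between genes, levels were compared per kilobase of exon. In WT siGLO the release factor gene *Wapl* had 786 ± 64.0 normalized counts per kilobase (SD, n = 3), *Ctcf* 778 ± 7.93 and *Cdca5* 776 ± 36.6, and these 3 genes were the most abundant of the 8. *Esco2* had 622 ± 68.0 normalized counts per kilobase, above its relative *Esco1* at 225 ± 27.7. The loader genes were at 283 ± 24.9 for *Nipbl* and 187 ± 11.4 for *Mau2*. *Hdac8* was far below all others, at 26.8 ± 1.05 normalized counts per kilobase, and its raw counts were between 119 and 240 per library.

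Between condition means, none of the 8 genes differed by more than 1.51-fold. The highest condition mean divided by the lowest was 1.07 for *Wapl*, 1.08 for *Cdca5*, 1.17 for *Esco1*, 1.28 for *Esco2*, 1.43 for *Ctcf*, 1.44 for *Nipbl*, 1.45 for *Mau2* and 1.51 for *Hdac8*. The median of this ratio over all tested genes was 1.51, and 8 of the 8 genes lay below it (*Hdac8* by less than the last digit given). The spread between libraries of a condition differed as well, from an SD of 0.05 on the log2 scale for *Mau2* and 0.06 for *Cdca5* to 0.14 for *Nipbl* and *Hdac8*, against a median of 0.16 over all tested genes. Neither median was matched to the level of the 8, and the tested genes include many with fewer reads than most of the 8. In the order of the condition means, neighbouring conditions shared a range of library values throughout for *Wapl*, *Cdca5*, *Esco1* and *Esco2*. *Nipbl* had a single gap, with Pds5a-KO siGLO under all others, and *Hdac8* a single gap, with WT siGLO under all others. *Ctcf* fell into 3 steps: Pds5b-KO, then WT siPds5b and WT siGLO, then the Pds5a-KO conditions in the order siStag1, siStag2, siPds5b and siGLO. *Mau2* also fell into 3, with Pds5b-KO first, WT siPds5b, WT siGLO and dual depletion next, and Pds5a-KO siGLO, siStag1 and siStag2 last, where siStag2 lay under siStag1 but overlapped siGLO.

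**Figure D1:**
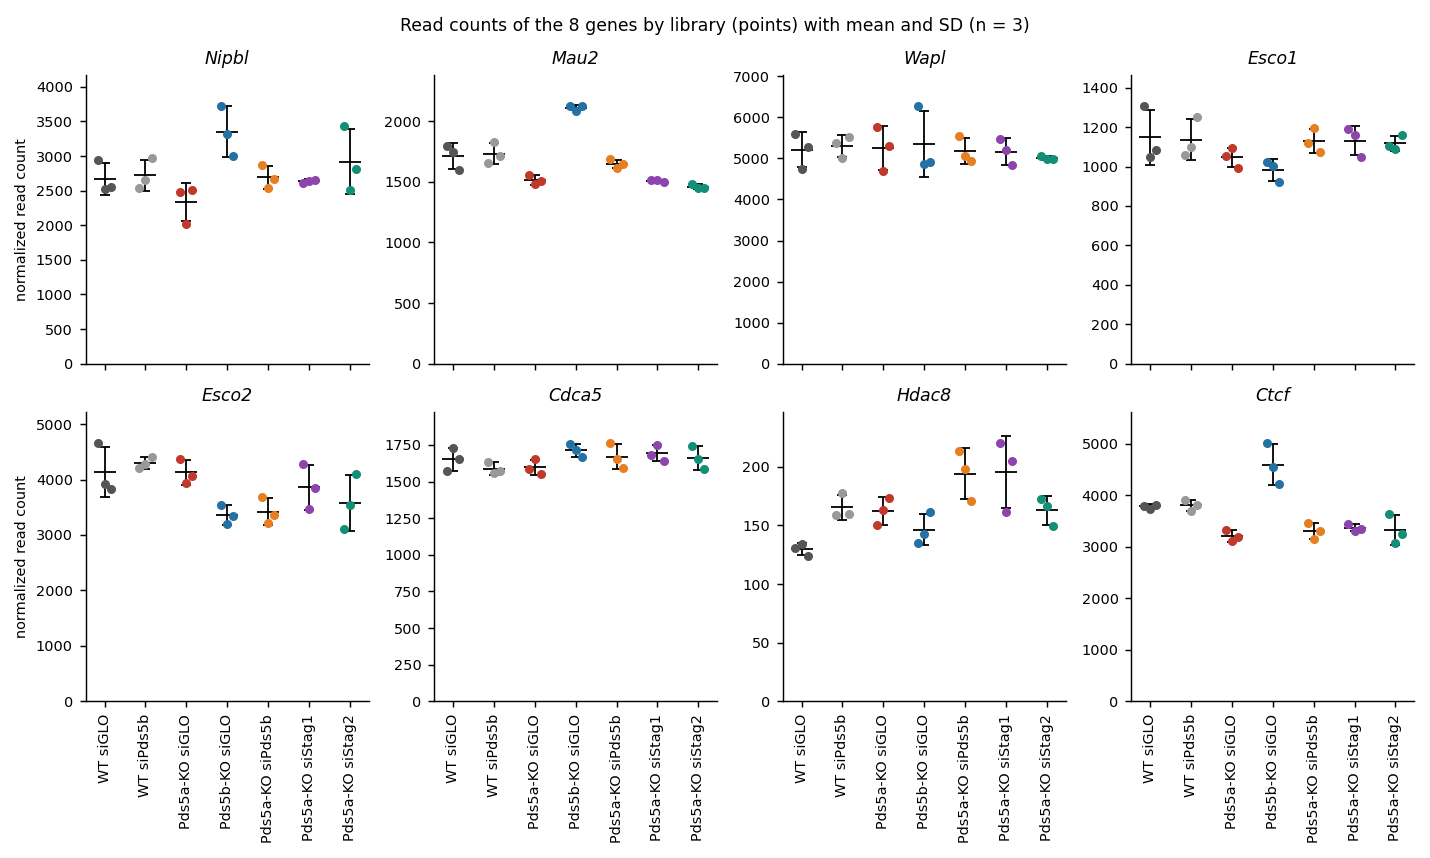
Normalized read counts (y axis, from 0) of the 8 genes in the 7 conditions (x axis), with a point for each library and a line with bars for the mean and SD of 3 libraries. *Ctcf* and *Mau2* were highest in Pds5b-KO siGLO, with means of 4591 and 2111, while the highest mean of *Wapl* was 1.07 times its lowest and that of *Cdca5* 1.08 times.

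The start regions of the genes are shown because *Ctcf* and *Mau2* moved together between the knockouts and *Cdca5* did not pass the test anywhere. *Hdac8* is included because it differed between dual depletion and WT siGLO. RefSeq gives a start for 5 of the 8 genes in the table used here (GRCm38.p6), and the 250 bases before it are printed 5′ to 3′ on the strand of the gene. For *Hdac8* and *Cdca5* the start given by GENCODE, at 102505359 and 6084983, lies inside the printed stretch. The rest of these stretches, past that start, is therefore within the gene by GENCODE and not upstream of it. Capitals mark matches, on either strand, to 8 short motifs: TTTGAA (the core of the cell cycle gene homology region), CCAAT (a box that NF-Y reads), GGGCGG (a GC box), TATAAA (the TATA box), CACGTG (an E-box), CCGGAAG (an ETS core), CCATNTT (a YY1 core) and TGACG (a part of the cyclic AMP response element). Capitals run together where matches touch or overlap.
Ctcf, chr8:105636288-105636537, plus strand: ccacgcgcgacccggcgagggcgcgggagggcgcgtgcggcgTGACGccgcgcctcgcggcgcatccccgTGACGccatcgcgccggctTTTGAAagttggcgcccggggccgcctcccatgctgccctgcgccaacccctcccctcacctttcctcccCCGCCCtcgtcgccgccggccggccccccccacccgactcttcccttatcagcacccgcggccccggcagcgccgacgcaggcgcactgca
Mau2, chr8:70042735-70042984, minus strand: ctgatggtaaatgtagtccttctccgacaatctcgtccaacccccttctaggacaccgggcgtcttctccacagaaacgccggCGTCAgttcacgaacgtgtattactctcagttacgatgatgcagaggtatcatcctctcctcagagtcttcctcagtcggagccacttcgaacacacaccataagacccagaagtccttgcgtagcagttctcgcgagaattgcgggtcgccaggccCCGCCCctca
Hdac8, chrX:102505159-102505408, minus strand: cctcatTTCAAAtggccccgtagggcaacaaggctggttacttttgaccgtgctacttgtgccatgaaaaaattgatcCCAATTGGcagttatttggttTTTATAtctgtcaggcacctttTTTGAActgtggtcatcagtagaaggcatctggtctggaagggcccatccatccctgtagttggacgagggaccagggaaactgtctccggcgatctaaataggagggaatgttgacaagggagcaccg
Cdca5, chr19:6084847-6085096, plus strand: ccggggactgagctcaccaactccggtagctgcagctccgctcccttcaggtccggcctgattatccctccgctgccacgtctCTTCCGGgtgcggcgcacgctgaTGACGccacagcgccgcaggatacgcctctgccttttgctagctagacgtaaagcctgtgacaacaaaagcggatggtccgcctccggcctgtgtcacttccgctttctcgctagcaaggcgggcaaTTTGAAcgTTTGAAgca
The *Ctcf* stretch was 77.6% G and C with 40 CG pairs, and the *Mau2* stretch 54.8% with 18 CG pairs, against medians of 52% and 6 over the 27025 genes with an entry. *Ctcf* and *Mau2* both held GGGCGG, which 32.9% of all such stretches hold, and TGACG, which 17.9% hold. *Wapl*, which did not move, held both as well. *Cdca5* had 2 matches of TTTGAA side by side at the end next to the RefSeq start, and both lie past its GENCODE start. *Hdac8* had 2 matches far from each other and *Ctcf* had 1, and 16.3% of all stretches hold this motif. *Hdac8* alone of the 5 matched TATAAA, past its GENCODE start, and 13% of all stretches hold this motif. The *Hdac8* stretch was 48.4% G and C with 6 CG pairs. A match is a description of letters and says nothing of a factor.

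*Ctcf*, which encodes the boundary factor, separated the genotypes. It lies on chromosome 8 of mm10 from 105636568 to 105682922, on the plus strand. The 3 WT siGLO libraries had 3793, 3741 and 3816 normalized counts and the 3 WT siPds5b libraries had 3904, 3686 and 3820. Pds5a-KO siGLO libraries had 3328, 3108 and 3183, and Pds5b-KO siGLO libraries had 5011, 4541 and 4220. The 12 Pds5a-KO libraries, whatever their siRNA, were between 3070 and 3638, and so all lay under the 6 WT libraries, which were between 3686 and 3904, and the 3 Pds5b-KO libraries lay above both. *Ctcf* was 1.21-fold higher in Pds5b-KO than in WT siGLO cells (log2 fold change 0.28 ± 0.07 SE, edgeR's quasi-likelihood test, adjusted p = 0.00343). In Pds5a-KO cells it was at 0.847 of WT siGLO (-0.24 ± 0.07, edgeR, adjusted p = 0.0106), which did not pass the threshold of 0.01. Between the knockouts the difference was -0.52 ± 0.07 (edgeR, adjusted p = 4.25e-06). The Pds5b-KO call was lost without any 1 of WT siGLO replicate 2 (adjusted p = 0.0146) or 3 (0.0104) or Pds5b-KO siGLO replicate 1 (0.0272) or 2 (0.0125), while the call between the knockouts was kept in 6 of 6 such fits. Exons of *Agrp* on the other strand cover 2.35% of the *Ctcf* exons, and *Agrp* had at most 28 counts in a library. Exons of *Gm5914*, which is not among the symbols of the files, cover 7.61%.

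*Mau2*, the partner of *Nipbl* in the loader, followed the same order of genotypes. Its position, also on chromosome 8, is 70016123 to 70042734 on the minus strand. WT siGLO libraries had 1797, 1744 and 1595 normalized counts, Pds5a-KO siGLO libraries 1558, 1479 and 1504, and Pds5b-KO siGLO libraries 2120, 2085 and 2128. No library of 1 of these conditions overlapped another. *Mau2* was 1.23-fold higher in Pds5b-KO than in WT siGLO (0.30 ± 0.06, edgeR, adjusted p = 0.000522), and 0.884 of WT siGLO in Pds5a-KO (-0.18 ± 0.06, edgeR, adjusted p = 0.0292, short of the threshold). Between the knockouts it differed by -0.48 ± 0.06 (edgeR, adjusted p = 1.91e-06). In dual depletion the libraries had 1683, 1616 and 1645 normalized counts, above all Pds5a-KO siGLO libraries, but the difference of 0.12 (95% confidence interval -0.0016 to 0.25) did not pass the test (edgeR, adjusted p = 0.177).

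Chromosome 8 as a whole moved with *Ctcf* and *Mau2*. The median log2 fold change of its 778 tested genes was -0.19 in Pds5a-KO siGLO against WT siGLO, 0.29 in Pds5b-KO siGLO against WT siGLO and -0.48 between the knockouts. In the same 3 comparisons the medians of the 19 other chromosomes stayed between -0.03 and 0.07, between -0.07 and 0.03, and between -0.01 and 0.10. Of the genes on chromosome 8, 83.3% were higher in Pds5b-KO than in WT siGLO and 89.3% were lower in Pds5a-KO than in Pds5b-KO. Less the median of their chromosome, the differences between the knockouts were -0.04 for *Ctcf* and -0.0043 for *Mau2*, and those of Pds5b-KO against WT siGLO were -0.016 and 0.0076. When each chromosome was scaled to its own median before testing, an alternative chosen after seeing the data, *Ctcf* and *Mau2* did not pass the test in either comparison (edgeR, adjusted p = 0.915 and 0.917 in Pds5b-KO against WT siGLO, 0.704 and 0.983 between the knockouts). Of the 20 nearest tested genes, 10 on either side, 17 were higher in Pds5b-KO than in WT siGLO around *Ctcf* and 17 around *Mau2*, with medians of 0.41 and 0.39. In Pds5a-KO against WT siGLO, 4 of the 20 neighbours of *Ctcf* were higher, with a median of -0.17, and 9 of the 20 neighbours of *Mau2*, with a median of -0.06. DNA copy number of chromosome 8 was not measured in these files, and its part was not tested.

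The shift was seen in each library of a genotype. The chromosome 8 median relative to WT siGLO was between 0.29 and 0.31 in the 3 Pds5b-KO libraries, and between -0.22 and -0.17 in the 12 Pds5a-KO libraries, which include those treated with siPds5b, siStag1 and siStag2. In WT siPds5b libraries it was between -0.03 and 0.01. In dual depletion *Mau2* stood above its chromosome, at -0.02, -0.08 and -0.06 relative to WT siGLO where the chromosome median was -0.22, -0.21 and -0.21.

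**Figure D2:**
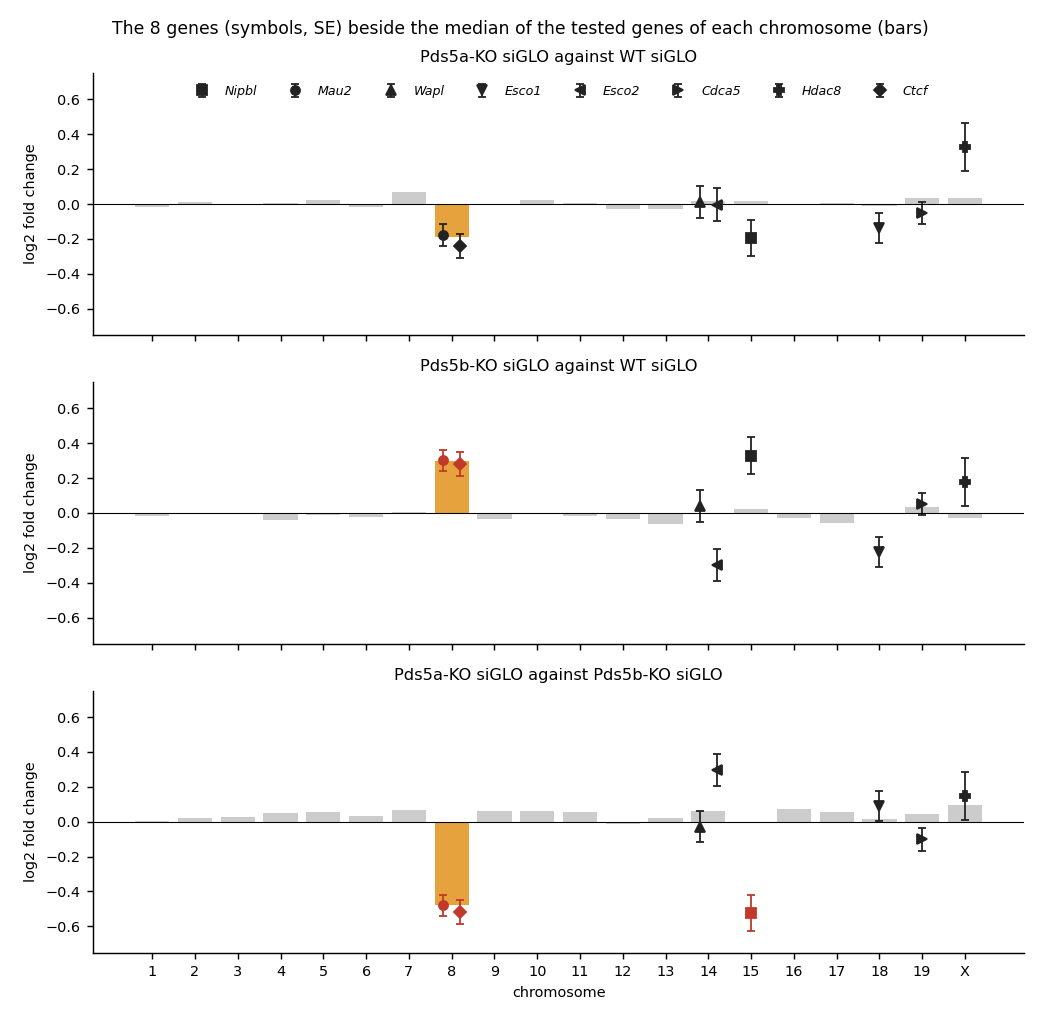
Log2 fold change (y axis) of the 8 genes (symbols with SE, red where the adjusted p was under 0.01) at their chromosome (x axis), with bars for the median of all tested genes on each chromosome and chromosome 8 in orange, in 3 comparisons. *Ctcf* and *Mau2* sit at the end of the chromosome 8 bar in each, and *Nipbl* on chromosome 15 does not sit at the end of its bar.

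**Figure D3:**
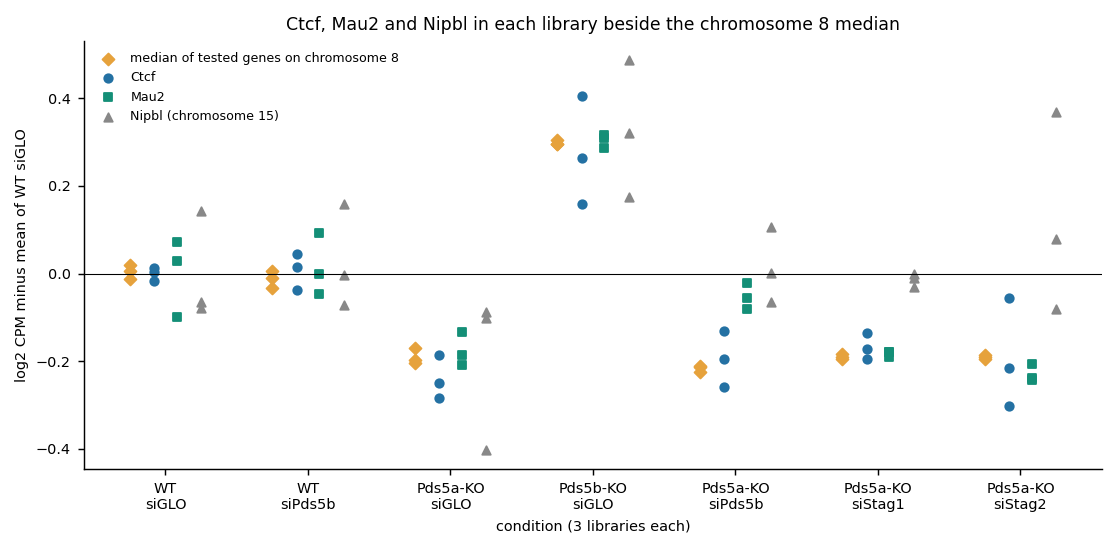
Log2 CPM of *Ctcf*, *Mau2* and *Nipbl* and the median of the tested genes on chromosome 8 in each of the 21 libraries, each relative to its mean in WT siGLO (y axis), by condition (x axis). The chromosome 8 median is near 0.29 to 0.31 in Pds5b-KO siGLO and between -0.22 and -0.17 in the Pds5a-KO conditions. *Ctcf* falls around it, and so does *Mau2* in most conditions. In dual depletion the 3 *Mau2* libraries lie above it. By less, the 3 *Mau2* libraries of siStag1 lie above it and the 3 of siStag2 under it.

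*Nipbl*, the large subunit of the loader, differed between the knockouts without such a shift of its chromosome. It lies on chromosome 15 from 8290617 to 8444463, on the minus strand. WT siGLO libraries had 2938, 2520 and 2545 normalized counts, Pds5a-KO siGLO libraries 2478, 2013 and 2503, and Pds5b-KO siGLO libraries 3729, 3324 and 3003. The WT libraries lay between those of the knockouts, with no overlap. Pds5a-KO was at 0.695 of Pds5b-KO (-0.52 ± 0.10, edgeR, adjusted p = 0.000576), and the call was kept in 6 of 6 fits that left out a library. The median of chromosome 15 in that comparison was -0.01, and that of the 20 nearest tested genes was -0.12. Against WT siGLO neither knockout passed the test: the difference was -0.19 in Pds5a-KO (95% confidence interval -0.41 to 0.02, edgeR, adjusted p = 0.173) and 0.33 in Pds5b-KO (0.11 to 0.54, edgeR, adjusted p = 0.0188). Without Pds5b-KO siGLO replicate 3 the latter was 0.42 and was called (edgeR, adjusted p = 0.00773).

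The siRNAs gave *Nipbl* no called change. Libraries of siStag2 in Pds5a-KO cells had 3434, 2515 and 2811 normalized counts, above every Pds5a-KO siGLO library, and the difference of 0.33 ± 0.10 had an adjusted p of 0.0549 (edgeR). The 3 siStag1 libraries, at 2606, 2641 and 2660, and the dual depletion libraries, at 2864, 2545 and 2662, also lay above every Pds5a-KO siGLO library. All of these comparisons share the Pds5a-KO siGLO libraries, which held the lowest *Nipbl* mean of the study, 2331 ± 276. The mean of *Nipbl* in dual depletion was 2690 ± 162, where WT siGLO had 2668 ± 234, and that of *Mau2* was 1648 ± 33.8, where WT siGLO had 1712 ± 105, so that both loader genes overlapped WT siGLO there.

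*Wapl*, the release factor, did not pass the test in any of the 9 comparisons. Its libraries ranged from 4692 to 6288 normalized counts with a median of 5070, and every condition overlapped its neighbour in the order of the means. The 9 log2 fold changes were between -0.07 and 0.04, and their 95% confidence intervals lay between -0.31 and 0.23, the widest being that of the interaction. The smallest adjusted p was 0.678 (edgeR). *Wapl* lies on chromosome 14 from 34673928 to 34747983, on the plus strand.

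*Cdca5*, which encodes sororin, was as steady with a smaller spread. Its libraries ranged from 1552 to 1762 normalized counts, and the 9 log2 fold changes were between -0.10 and 0.12 with 95% confidence intervals between -0.23 and 0.31. The smallest adjusted p was 0.224 (edgeR). *Cdca5* lies on chromosome 19 from 6084983 to 6091777, on the plus strand.

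Of the 2 acetyltransferase genes, *Esco2* had the larger differences, but neither gene passed the threshold in any comparison. *Esco2* lies on chromosome 14 from 65819038 to 65833994, on the minus strand. WT siGLO libraries had 4655, 3913 and 3837 normalized counts, Pds5b-KO siGLO libraries 3548, 3199 and 3343, and dual depletion libraries 3689, 3212 and 3368. Every Pds5b-KO and dual depletion library lay under every WT siGLO library. The differences from WT siGLO were -0.30 ± 0.09 in Pds5b-KO (edgeR, adjusted p = 0.0169) and -0.27 ± 0.09 in dual depletion (edgeR, adjusted p = 0.0193). Without dual depletion replicate 1 the latter was -0.34 and was called (edgeR, adjusted p = 0.00996). In Pds5a-KO siGLO the libraries had 4373, 3944 and 4065, within the range of WT siGLO, with a difference of -0.0031 (95% confidence interval -0.19 to 0.19). Against Pds5a-KO siGLO, dual depletion differed by -0.27 ± 0.09 (edgeR, adjusted p = 0.0494). Between the knockouts *Esco2* was higher in Pds5a-KO siGLO than in Pds5b-KO siGLO by 0.30 ± 0.09 (edgeR, adjusted p = 0.0173). Their libraries did not overlap, and this difference was called with a replicate block (edgeR, adjusted p = 0.00744).

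The response of *Esco2* to siPds5b was compared between the genotypes. In WT cells the siPds5b libraries had 4207, 4284 and 4409 normalized counts, all within the range of WT siGLO, and the log2 fold change was 0.06 (95% confidence interval -0.13 to 0.25). The interaction, which is the effect of siPds5b in Pds5a-KO cells minus that in WT cells, was -0.33 ± 0.13 with an unadjusted p of 0.0202 and an adjusted p of 0.183 (edgeR). After siStag2 in Pds5a-KO cells *Esco2* had 3101, 3533 and 4097 normalized counts, which overlapped the Pds5a-KO siGLO libraries, and after siStag1 it had 4273, 3463 and 3854.

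*Esco1* had its highest mean, 1148 ± 141 normalized counts, in WT siGLO and its lowest, 983 ± 55.2, in Pds5b-KO siGLO. The Pds5b-KO libraries, at 1024, 1005 and 920, lay just under the WT siGLO libraries at 1310, 1049 and 1086, with a difference of -0.23 ± 0.09 (edgeR, adjusted p = 0.0494). The other 8 comparisons of *Esco1* had log2 fold changes between -0.14 and 0.12. It lies on chromosome 18 from 10566507 to 10610352, on the minus strand.

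*Hdac8*, the deacetylase gene, had the lowest level of the 8 genes and was higher in dual depletion than in WT siGLO. It lies on chromosome X from 102284639 to 102505359, on the minus strand. WT siGLO libraries had 131, 134 and 124 normalized counts, dual depletion libraries 213, 198 and 170, and Pds5a-KO siGLO libraries 150, 163 and 173. WT siPds5b libraries had 159, 177 and 160, and Pds5b-KO siGLO libraries 135, 143 and 161. The mean was highest after siStag1 in Pds5a-KO cells, at 195 ± 30.5, with libraries of 220, 161 and 204, and siStag2 libraries had 173, 166 and 149. Every library of the 6 other conditions lay above every WT siGLO library. Dual depletion was 1.5-fold higher than WT siGLO (0.58 ± 0.14, 95% confidence interval 0.30 to 0.87, edgeR, adjusted p = 0.00127), where the median of the X chromosome was 0.10. Without dual depletion replicate 1 the adjusted p was 0.0116 and the log2 fold change 0.49. The single treatments did not pass the test: 0.35 ± 0.14 for siPds5b in WT cells (unadjusted p = 0.018, adjusted p = 1, edgeR), 0.33 ± 0.14 for Pds5a-KO siGLO (edgeR, adjusted p = 0.0815) and 0.18 in Pds5b-KO siGLO (95% confidence interval -0.11 to 0.46). Against Pds5a-KO siGLO, its own background, dual depletion did not pass either, and the libraries overlapped. That difference was 0.26 (95% confidence interval -0.02 to 0.54, edgeR, adjusted p = 0.208). In Pds5a-KO cells siStag1 gave 0.27 (95% confidence interval -0.01 to 0.55, edgeR, adjusted p = 0.488) over siGLO. The interaction was -0.09 (95% confidence interval -0.49 to 0.30), an interval that includes 0.

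In dual depletion against WT siGLO, *Hdac8* was the 1 gene of the 8 that passed the test, while 32.0% of all tested genes did. Taken without sign, the log2 fold changes had a median of 0.04 over the 8 genes and 0.30 over all tested genes, which were not matched to the 8 in level. In Pds5b-KO siGLO against WT siGLO, 2 of the 8 passed, *Ctcf* and *Mau2*, both higher, and 18.2% of all genes did. In Pds5a-KO siGLO against Pds5b-KO siGLO, 3 of the 8 passed, *Nipbl*, *Mau2* and *Ctcf*, all lower in Pds5a-KO, and 19.2% of all genes did. In Pds5a-KO siGLO against WT siGLO, 0 of the 8 passed with edgeR and DESeq2 called 1, *Ctcf*, while 17.8% of all genes passed with edgeR. An unadjusted p under 0.05 was found for 3 of the 8 and for 38.6% of all genes.

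The siRNA comparisons called 0 of the 8 with edgeR and 0 with DESeq2. For siPds5b in WT cells, 1 had an unadjusted p under 0.05, as did 4.22% of all tested genes. There 0.00668% of all tested genes passed, which is 1 gene. For siPds5b in Pds5a-KO cells, 1 had an unadjusted p under 0.05, as did 29.3% of all genes, and 7.59% of all genes passed. For siStag1 in Pds5a-KO cells, 0 had an unadjusted p under 0.05, where 10.7% of all genes did, and 0.0936% of all genes passed. After siStag2 in Pds5a-KO cells, 2 had an unadjusted p under 0.05, *Nipbl* and *Esco2*, as did 25.3% of all genes. There 2.24% of all genes passed. The interaction had 1 at an unadjusted p under 0.05, *Esco2*, where 17.3% of all genes had such a p and 1.48% passed.

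**Figure D4:**
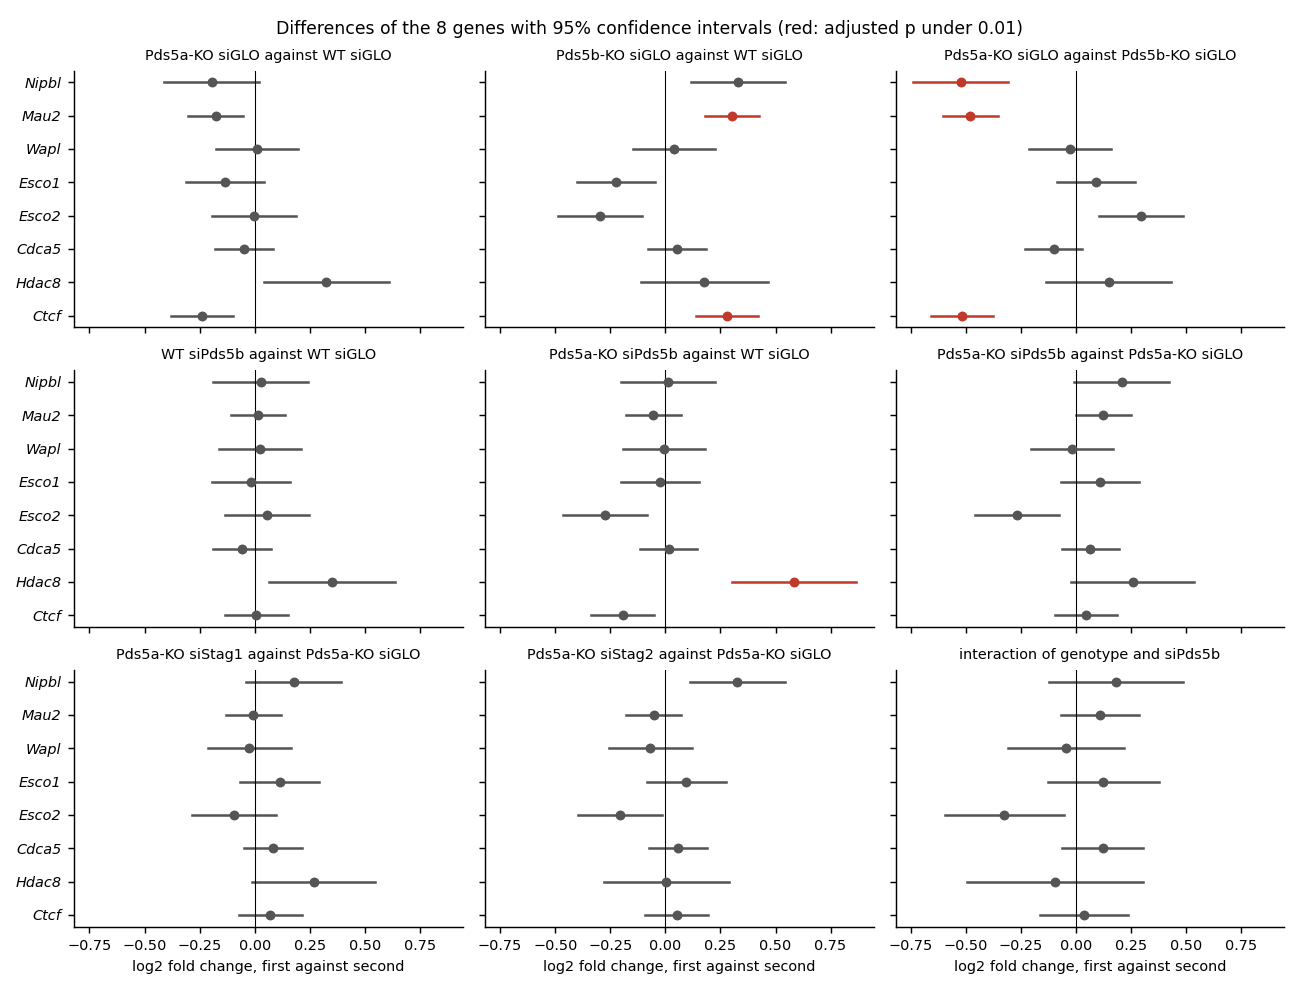
Log2 fold changes (x axis) of the 8 genes (y axis) in the 9 comparisons, with 95% confidence intervals and red for an adjusted p under 0.01. The red points are *Ctcf* and *Mau2* in Pds5b-KO against WT siGLO, the same genes and *Nipbl* between the knockouts, and *Hdac8* in dual depletion against WT siGLO.

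The 7 genes of the ring and its STAG and PDS5 subunits are given beside the 8. In dual depletion against WT siGLO, 3 of the 7 passed, where 32.0% of all tested genes did. An unadjusted p under 0.05 was found for 6 of the 7 and for 51.6% of all genes. The 3 were all lower: the targets *Pds5b* and *Pds5a*, and *Rad21*, which encodes the subunit that closes the ring, at -0.24 ± 0.06 (edgeR, adjusted p = 0.00267). The median over the 7, targets included, was -0.18, against -0.0013 over all genes. For siStag1 and siStag2 the 1 called gene was the target, *Stag1* at -2.08 ± 0.09 (edgeR, adjusted p = 5.54e-14) and *Stag2* at -1.90 ± 0.10 (edgeR, adjusted p = 3.48e-11).

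Of 19 partner genes, which guide the same steps (separase and its inhibitor securin, shugoshin, mitotic kinases, fork proteins, other boundary and loop factors), 2 rose and 5 fell in dual depletion against WT siGLO, where 32.0% of all tested genes passed. The median over the 19 was -0.17. The smallest adjusted p values were those of *Pttg1*, the securin that holds separase inactive, and *Pcna*, the sliding clamp that ESCO2 binds during replication, both lower: -1.07 ± 0.12 (edgeR, adjusted p = 1.97e-07) and -0.75 ± 0.09 (edgeR, adjusted p = 4.48e-07). *Pttg1* was lower in Pds5b-KO, at -0.92 ± 0.12 (edgeR, adjusted p = 4.64e-06), and in Pds5a-KO, at -0.49 ± 0.12 (edgeR, adjusted p = 0.00312). Among these genes 1 rose and 3 fell in Pds5a-KO, where 17.8% of all genes passed, and 2 rose and 3 fell in Pds5b-KO, where 18.2% did, *Pcna* being lower in both, at -0.47 ± 0.09 and -0.48 ± 0.09 (edgeR, adjusted p = 0.000384 and 0.000317). Between the knockouts the smallest adjusted p was that of *Chtf8*, a fork clamp loader gene that also lies on chromosome 8, lower in Pds5a-KO at -0.49 ± 0.07 (edgeR, adjusted p = 8.18e-06), and *Pttg1* was higher. *Chtf8* was also 1 of the 2 that rose in Pds5b-KO against WT siGLO, where the chromosome 8 median was 0.29. After siPds5b in Pds5a-KO cells 1 of the 19 passed, *Pttg1*, lower at -0.58 ± 0.12 (edgeR, adjusted p = 0.00173), where 7.59% of all genes passed. An unadjusted p under 0.05 was found for 5 of the 19 and for 29.3% of all genes. After siPds5b in WT cells edgeR called 0 of the 19, with 0 at an unadjusted p under 0.05 and 0 by DESeq2. Of all genes 4.22% had such an unadjusted p there and 0.00668% passed. After siStag1 edgeR called 0, with 1 at an unadjusted p under 0.05 and 0 by DESeq2, where 10.7% of all genes had such a p and 0.0936% passed. After siStag2 edgeR called 0, with 8 at an unadjusted p under 0.05 and 1 by DESeq2. There 25.3% of all genes had such a p and 2.24% passed.

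The cell cycle list is given because *Esco2* and *Cdca5* are used in S phase and after it. Of 20 genes, 2 rose and 10 fell in dual depletion against WT siGLO, where 32.0% of all tested genes passed. The median over the 20 was -0.21. *Rrm2*, a subunit of the enzyme that makes deoxynucleotides, fell to -1.34 ± 0.07 on the log2 scale (edgeR, adjusted p = 7.63e-13) and *Mcm5*, of the replicative helicase, to -0.72 ± 0.06 (edgeR, adjusted p = 3.43e-09), while *Cdc20*, a mitotic activator of the anaphase complex, rose by 0.64 ± 0.06 (edgeR, adjusted p = 2.37e-08). *Mcm5* and *Cdt1* of this list lie on chromosome 8, whose median was -0.23 in this comparison. In Pds5a-KO 1 rose and 6 fell, where 17.8% of all genes passed, and in Pds5b-KO 3 rose and 5 fell, where 18.2% did. The medians over the list were -0.11 and -0.14. *Mcm5* and *Cdt1* were among the 6 that fell in Pds5a-KO, where the chromosome 8 median was -0.19. *Cdt1* was among the 3 that rose in Pds5b-KO, where the chromosome 8 median was 0.29. After siPds5b in WT cells edgeR called 0 of the 20, with 2 at an unadjusted p under 0.05 and 0 by DESeq2. Of all genes 4.22% had such an unadjusted p there and 0.00668% passed. After siPds5b in Pds5a-KO cells 1 of the 20 rose and 2 fell, where 7.59% of all genes passed. *Cdca5* passed the test in none of the comparisons in which these genes did. The paper measured cell cycle phase in dual depletion by flow cytometry and reports no significant difference from WT siGLO in any phase. It also reports a lower proliferation rate in dual depletion. The part of cell cycle phase in the levels of *Esco2* was not tested.

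The genes whose levels followed each member most closely over the 21 libraries are given as a description. The libraries share clones and siRNAs, and differences between genotypes enter every correlation. *Ctcf* was most like *Nup133*, a nuclear pore gene also on chromosome 8 (Pearson r = 0.96), and *Foxred2* on chromosome 15 (r = 0.95). *Mau2* was most like *Vps37a* and *Dync1li2*, both on chromosome 8 (r = 0.94 and 0.93). *Nipbl* was most like *Usp34* on chromosome 11 (r = 0.94) and *Bod1l* on chromosome 5 (r = 0.93), *Wapl* like *Csnk2a1* and *Gin1* (r = 0.86 for each), and *Esco2* like *Eif4a2* and *Gm13157* (r = 0.90 and 0.89). The lowest values were those of *Hdac8* with *1700101E01Rik* and *Dgka* (r = 0.81 and 0.78), *Esco1* with *Lin9* and *Nuf2* (r = 0.76 and 0.74) and *Cdca5* with *Xpo6* and *Foxh1* (r = 0.73 for each). Among the 8 genes themselves the highest was *Mau2* with *Ctcf* (r = 0.87), followed by *Nipbl* with *Ctcf* (r = 0.74), and the lowest was *Esco2* with *Cdca5* (r = -0.61).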

How the data were processed

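Poly-A RNA of v6.5 mESCs was sequenced in 21 libraries, 3 for each of 7 conditions. Alignment to mm10 was done with STAR by the authors, who deposited raw read counts for 23412 gene symbols per library, without normalization. How reads were counted (tool, annotation, strand) is not given in the sources used here. Between 17311090 and 23989198 counts per library set the precision.

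edgeR 4.0.16 in R 4.3.3 was used with its filter on low counts, TMM and 1 quasi-likelihood fit of all libraries, and p-values were adjusted by Benjamini-Hochberg over 14963 genes. The threshold for a call was an adjusted p of 0.01. The standard error is the log2 fold change divided by the square root of F. Gene positions came from GENCODE vM21 (99.3% of tested genes), start regions from RefSeq (GRCm38.p6). The script was tested on simulated counts. The 8 genes and the lists were chosen with earlier results of these data known. All 8 are named in each comparison, and from each other list up to 3 genes of smallest adjusted p. Same-numbered libraries deviated together in siPds5b, siStag1 and siStag2 comparisons with their own siGLO (each of 3 correlations over 0.1), and a block changed no call of the 8 genes there.

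Alternatives were DESeq2 1.42.0, RLE, library size only, no filter, at least 10 counts in every library, the conditions compared alone, an adjusted p under 0.05, a replicate block, subtraction of the chromosome median, chromosome scaling and leaving out each library.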

Additional observations from a re-analysis of the deposited data

How the results depend on the processing

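Of the 72 differences (8 genes in 9 comparisons), 20 had an unadjusted p under 0.05 and were followed under every alternative, and 275 of their 306 refits kept direction and side of the threshold. The other 52 were not called in any of 822 refits, although 57 of these changed sign around 0. For Pds5a-KO siGLO against WT siGLO, with 0 genes called, 1 was called by DESeq2, with library size only and with the replicate block, and 2 at an adjusted p under 0.05. For Pds5b-KO siGLO against WT siGLO, with 2 called, 1 was called in a fit of only the conditions compared, 4 with the replicate block, 5 at an adjusted p under 0.05, and 1 to 3 when a library was left out. For dual depletion against WT siGLO, with 1 called, 3 were called with the replicate block and 3 at an adjusted p under 0.05. For siPds5b in Pds5a-KO cells 1, *Esco2*, was called at an adjusted p under 0.05. Between the knockouts, with 3 called, *Esco2* was called as well with the replicate block and at an adjusted p under 0.05. In these knockout comparisons with WT siGLO and between the knockouts the replicate numbers did not pair the libraries in every pair, and the genes the block added were *Ctcf*, *Nipbl* and *Esco2*. The block changed no other call. With each chromosome scaled to its own median, 0 were called in Pds5b-KO against WT siGLO and 1, *Nipbl*, between the knockouts. There *Mau2* in Pds5a-KO against WT siGLO changed sign to 0.0084, *Ctcf* in Pds5b-KO against WT siGLO to -0.013 (-0.016 after subtraction of the chromosome median) and *Ctcf* in dual depletion against WT siGLO to 0.027, by the construction of that setting. Among the other 52, *Mau2* in dual depletion against WT siGLO went from -0.05 to 0.17 (edgeR, adjusted p = 0.0319), short of the threshold of 0.01. At an adjusted p under 0.05 the share of all genes called was 28.2%, 31.3%, 44.7%, 15.7% and 32.4% in the comparisons named for it, in that order. With 119 to 240 counts per library, *Hdac8* had the widest standard errors, up to 0.19 for the interaction.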
